A study of Homo sapiens with 12 samples.

Results

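The 10 genes described here encode cadherins and the plaque proteins that hold them: the classical cadherins CDH1, CDH2, CDH3 and CDH5, the LI-cadherin CDH17, the desmosomal cadherins DSC2, DSC3 and DSG2, and the armadillo proteins PKP3 and CTNND1. They were named by symbol, and all 10 were found among the 61806 gene IDs of the count table. The genes were chosen from these same measurements, with their levels in the 4 groups and their fold changes in both comparisons known, so their values are given as a description without p-values. Genes of the junction that were not among the 10 were taken from lists of known function and are given with their tests. These lists too were chosen with earlier results of these data known, and some genes were named after their values were seen.

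Poly(A) RNA of cells labelled Hep3B and HepG2, the names of 2 established liver tumour cell lines, was sequenced in 12 libraries, 3 in each of 4 groups. Libraries labelled Hep3B carried a Tet-on-induced shRNA against CD146 (Hep3B CD146 sh) or a Tet-on-induced control shRNA (Hep3B Con sh). HepG2 cells received a vector for CD146 (HepG2 CD146oe) or the vector pLVX alone (HepG2 pLVX). CD146 is a cell adhesion molecule of the immunoglobulin superfamily encoded by MCAM. The labels do not say whether a group was 1 clone or a mixed population, whether the numbered shRNA libraries stand for different hairpins, or whether separate cultures gave the 3 libraries. The p-values therefore cover only library-to-library spread, part or all of which may be technical. The line and the way CD146 was changed differ together, and the difference between the lines in any response was not tested.

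Cadherins are calcium-dependent adhesion proteins that span the membrane and bind cadherins on the neighbouring cell. Classical cadherins bind β-catenin or plakoglobin and p120-catenin (CTNND1) through their cytoplasmic tail and so reach the actin cytoskeleton, while the desmogleins and desmocollins bind plakoglobin and the plakophilins, which reach the keratin filaments through desmoplakin. Hepatocytes hold E-cadherin (CDH1) and N-cadherin (CDH2) together, whereas VE-cadherin (CDH5) is the cadherin of endothelium, LI-cadherin (CDH17) that of intestinal epithelium, and DSC3 a desmocollin of stratified epithelium. DSC2 and DSG2 are the desmosomal pair of simple epithelia.

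Library totals were 12.8M to 18.1M counts. CPM stands for counts at a library total of 1e6, and 3 counts, taken as the floor of detection, were worth 0.165 to 0.235 CPM. MCAM itself had 22.0, 24.2 and 26.9 CPM in the CD146 shRNA libraries labelled Hep3B, against 114, 112 and 119 CPM in the control shRNA libraries. In HepG2, MCAM averaged 1932 CPM with CD146 overexpression and 23.4 CPM with pLVX. Of 10 hepatocyte markers, which Hep3B cells are known to express in part, all 10 were above the floor in every HepG2 library but only HNF4A in every library labelled Hep3B. The label Hep3B is therefore in doubt, and it could not be checked further. Albumin (ALB) had 1, 1 and 298 counts in the 3 CD146 shRNA libraries labelled Hep3B and 0, 5 and 0 counts in the control shRNA libraries. The 298 counts of the CD146 shRNA library numbered 3 were 0.114% of the HepG2 level of ALB. The same share of the HepG2 level would give 1.43 of its 41 CDH1 counts, 3.41 of its 210 CDH2 counts and 0.00185 of its 270 CDH5 counts.

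The deposited FPKM values, which are scaled for gene length, allow genes to be set side by side. DSG2 was the most abundant of the 10 transcripts in all 4 groups, with a mean of 39.0 FPKM with the CD146 shRNA, 38.6 FPKM with the control shRNA, 29.6 FPKM with CD146 overexpression and 28.8 FPKM with pLVX. In the CD146 shRNA libraries the order after DSG2 was PKP3, DSC2, DSC3, CDH5, CDH2, CTNND1, CDH17, CDH1 and CDH3, and only the ranges of the neighbours DSC3 and CDH5 overlapped. In the control shRNA libraries it was PKP3, DSC2, CDH2, DSC3, CTNND1, CDH17, CDH1, CDH5 and CDH3. There the ranges of CDH2 and DSC3, of CDH1 and CDH5, of CDH1 and CDH3, and of CDH5 and CDH3 overlapped. CDH5 was thus 1 of the 3 lowest genes with the control shRNA and stood beside DSC3 with the CD146 shRNA.

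HepG2 had another order. With CD146 overexpression CDH2 and CDH1 followed DSG2, then DSC2, PKP3, CTNND1 and DSC3, with CDH3, CDH5 and CDH17 at the bottom. The range of CDH3 overlapped that of CDH5 and reached the 0.0 FPKM of CDH17, and no others overlapped. With pLVX the same 7 genes led in the same order and the ranges of DSC2 and PKP3 overlapped, as did those of CDH5 and CDH3. Over all 6 libraries of each line, 4 genes (CDH5, CDH17, DSC3 and DSG2) had every FPKM value of the libraries labelled Hep3B above every HepG2 value. For 4 others (CDH1, CDH2, DSC2 and CTNND1) every value lay below, and CDH3 and PKP3 overlapped. The share of all genes that separate the lines in this way was not computed, so nothing is read from these counts. CDH1 spanned 0.08 to 0.65 FPKM in libraries labelled Hep3B and 13.92 to 15.14 FPKM in HepG2.

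**Figure D1:**
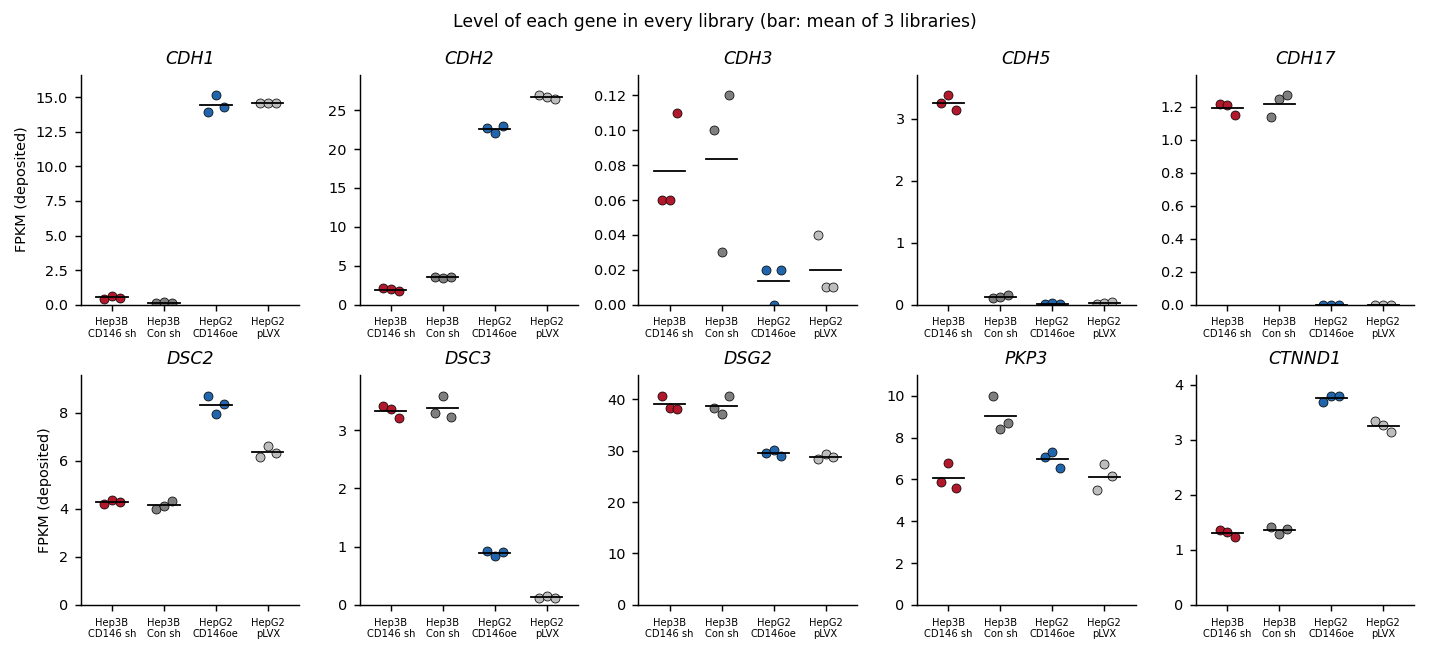
Deposited FPKM of the 10 genes (vertical axis, linear, from 0, own scale in each panel) in every library; points are libraries, black bars the mean of 3. CDH5 is high only in the 3 libraries labelled Hep3B with the CD146 shRNA (3.15 to 3.38 FPKM), and DSC3 in HepG2 is higher with CD146 overexpression (0.84 to 0.93 FPKM) than with pLVX (0.11 to 0.15 FPKM).

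For the comparison of the shRNAs, fold changes were estimated with edgeR on the counts of the 16968 genes that passed the filter on low counts, and all 10 genes were among them. CDH5 and CDH1 were higher with the CD146 shRNA, CDH2 and PKP3 were lower, and the other 6 differed little. By the rule used for all genes (edgeR quasi-likelihood test, adjusted p under 0.05), 2 of the 10 counted as higher and 2 as lower, where 26.8% of all genes tested were higher and 28.5% lower. The 2 groups did not overlap for 4 of the 10, against 59.8% of all genes tested. As these comparisons chose the genes, nothing is read from the counts. The median size of the log2 fold change over all genes tested was 0.29.

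CDH5 (VE-cadherin, chromosome 16, 66366622 to 66404786, plus strand) differed the most of the 10. It had 19.8, 21.0 and 19.5 CPM with the CD146 shRNA and 0.649, 0.722 and 0.891 CPM with the control shRNA, which rest on 270 to 358 and 10 to 15 counts. The 3 CD146 shRNA libraries lay close together and far above the 3 controls, at a log2 fold change of 4.72 (SE 0.16), or 26.4-fold. In bulk RNA, more cells with the transcript and more transcript per cell cannot be told apart. Without the CD146 shRNA library numbered 3, which held the albumin counts, it was 4.74. HepG2 libraries had 1, 2 and 1 counts of CDH5 with CD146 overexpression and 1, 2 and 3 with pLVX, at or under the floor, so no fold change is given there.

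CDH5 is a defining gene of endothelial cells, so 15 other endothelial markers were examined. In libraries labelled Hep3B, 8 of the 15 passed the filter: ESAM and VWF rose with the CD146 shRNA, SOX17 and ERG fell, and 4 did not pass the test. Of all genes tested there, 26.8% rose and 28.5% fell. ESAM, an adhesion molecule of endothelial tight junctions, averaged 20.1 ± 1.12 CPM with the CD146 shRNA and 14.1 ± 1.08 CPM with the control shRNA (log2 fold change 0.50, edgeR adjusted p = 5.2e-06). VWF, the von Willebrand factor, averaged 2.34 CPM with the CD146 shRNA and 0.861 CPM with the control shRNA (1.43, edgeR adjusted p = 3.3e-05). The transcription factor SOX17 averaged 4.07 CPM with the CD146 shRNA and 6.69 CPM with the control shRNA (-0.71, edgeR adjusted p = 1.6e-04). ERG, a transcription factor that maintains CDH5 in endothelium, averaged 16.1 CPM with the CD146 shRNA and 18.9 CPM with the control shRNA (-0.23, edgeR adjusted p = 0.0316), a call lost when the control shRNA library numbered 2 (adjusted p = 0.24) or the CD146 shRNA library numbered 1 (0.065) or 2 (0.11) was left out. The median log2 fold change of the 8 was 0.14, against 0.00 for all genes tested. Summed over the 15 markers, the level was 62.0 to 64.5 CPM with the CD146 shRNA and 56.8 to 59.6 CPM with the control shRNA. In this sum ESAM rose the most in CPM, while SOX17 and ERG fell, so the sum does not stand for the list as a whole. EGFL7 averaged 15.8 CPM with the CD146 shRNA and 13.8 CPM with the control shRNA and did not pass the test (edgeR adjusted p = 0.0631). KDR, the main VEGF receptor of endothelium, had 0 counts in all 6 libraries, TIE1 and EMCN at most 1 count, and PECAM1 23 to 33 counts with the CD146 shRNA and 18 to 26 with the control shRNA.

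**Figure D2:**
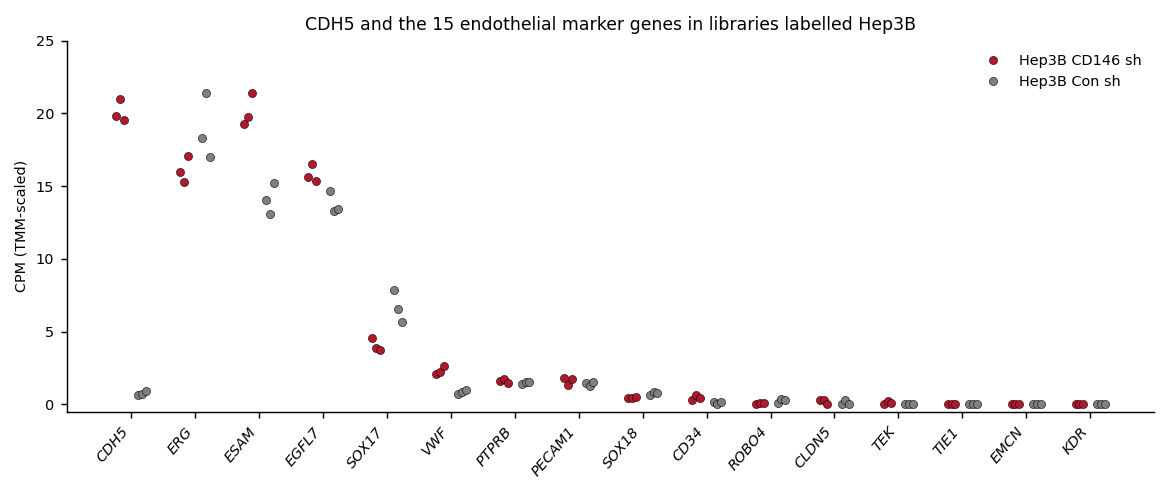
TMM-scaled CPM (vertical axis, linear) of CDH5 and the 15 endothelial markers in libraries labelled Hep3B, with the CD146 shRNA (red, left) and the control shRNA (grey, right); points are libraries. CDH5 stands at 19.5 to 21.0 CPM with the CD146 shRNA and under 1 CPM with the control shRNA, while KDR is at 0 in both.

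CDH1 (E-cadherin, chromosome 16, 68737225 to 68835548, plus strand) had 2.60, 4.04 and 2.96 CPM with the CD146 shRNA, against 0.826, 1.30 and 0.475 CPM with the control shRNA. All 3 CD146 shRNA libraries were above all 3 controls, at a log2 fold change of 1.92 (SE 0.28), but the values rest on 41 to 68 and 8 to 18 counts. Leaving out 1 library at a time gave 1.61 to 2.28. At 0.52 ± 0.115 FPKM with the CD146 shRNA and 0.147 ± 0.0702 FPKM with the control shRNA (SD, n = 3), CDH1 was far under the 14.5 FPKM of HepG2 with CD146 overexpression.

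CDH2 (N-cadherin, chromosome 18, 27950966 to 28177446, minus strand) had 17.9, 17.5 and 15.2 CPM with the CD146 shRNA and 30.2, 28.9 and 29.8 CPM with the control shRNA. Every CD146 shRNA library was lower than every control (log2 fold change -0.81, SE 0.08), and the mean was 57.2% of the control by the fitted fold change. PKP3 (plakophilin 3, a desmosomal plaque protein, chromosome 11, 392614 to 404908, plus strand) had 22.3, 26.4 and 21.7 CPM with the CD146 shRNA and 37.4, 31.8 and 32.7 CPM with the control shRNA. The groups did not overlap (-0.53, SE 0.08).

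The other 6 genes overlapped between the shRNAs. DSG2 (desmoglein 2) averaged 376 CPM with the CD146 shRNA and 363 CPM with the control shRNA (log2 fold change 0.05, SE 0.04). DSC2 (desmocollin 2) averaged 54.5 CPM with the CD146 shRNA and 51.4 CPM with the control shRNA (0.08, SE 0.06). These genes form the desmosome of simple epithelia, and neither differed by more than 1.06-fold. DSC3 (desmocollin 3) averaged 26.0 CPM with the CD146 shRNA and 25.7 CPM with the control shRNA (0.02, SE 0.07). CTNND1 (p120-catenin, which holds cadherins at the surface) averaged 20.2 CPM with the CD146 shRNA and 20.4 CPM with the control shRNA (-0.02, SE 0.08). CDH17 had 4.76, 4.81 and 4.56 CPM with the CD146 shRNA and 4.37, 4.83 and 4.87 CPM with the control shRNA (0.01, SE 0.15). CDH3 (P-cadherin) had 7, 7 and 10 counts with the CD146 shRNA and 11, 3 and 13 with the control shRNA, close to the floor, and its fold change has the largest SE of the 10 (-0.19, SE 0.44). The intestinal transcription factors CDX1 and CDX2, which drive CDH17 in intestine, had at most 1 count in these libraries.

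For the comparison of overexpression with pLVX in HepG2, 15300 genes passed the filter. They included 7 of the 10, as CDH3, CDH5 and CDH17 had too few counts. DSC3 and DSC2 were higher with CD146 overexpression, CDH2 was lower, and CDH1, DSG2, PKP3 and CTNND1 differed by at most 1.1-fold. By the all-gene rule 2 of the 7 counted as higher and 1 as lower, where 9.55% of all genes tested were higher and 10.3% lower. The groups did not overlap for 5 of the 7 (DSC2, DSC3 and CTNND1 above, CDH1 and CDH2 below), against 33.6% of all genes tested, and again nothing is read from these counts. The median size of the log2 fold change over all genes tested was 0.12.

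**Figure D3:**
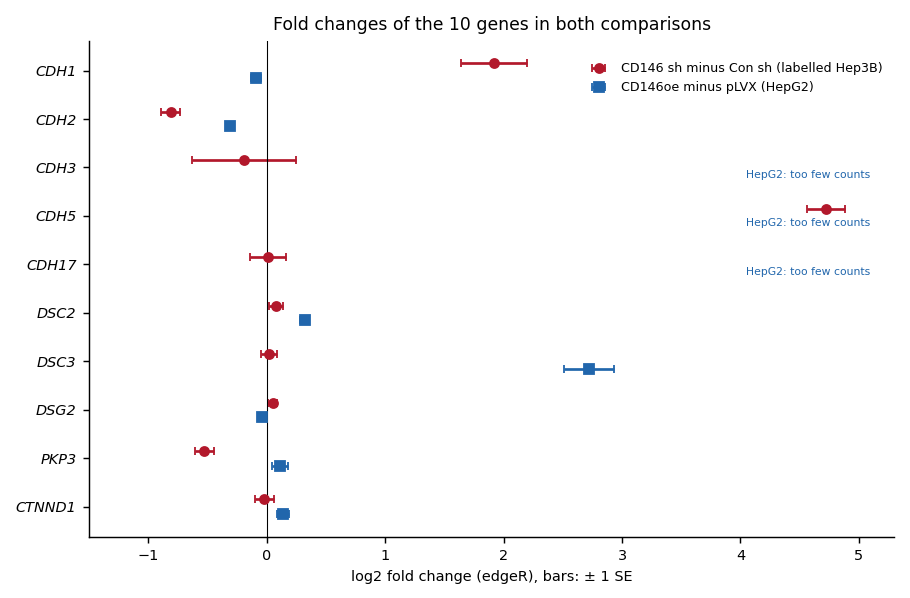
Log2 fold change (horizontal axis) of the 10 genes for the CD146 shRNA minus the control shRNA in libraries labelled Hep3B (red circles) and CD146 overexpression minus pLVX in HepG2 (blue squares), each from 3 against 3 libraries; bars are ± 1 SE. CDH5 (4.72) and CDH1 (1.92) lie to the right for the shRNA and DSC3 (2.72) for overexpression, while CDH2 lies left of 0 in both comparisons.

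DSC3, DSC2 and DSG2 lie in the desmosomal cadherin cluster of chromosome 18, in this order, with 16.0 kb between DSC3 and DSC2 and 395.5 kb between DSC2 and DSG2 in GENCODE 29 (GRCh38). As the overexpression comparison sets DSC3 and DSC2 apart from DSG2, the promoter windows of these genes (250 bases before to 50 after a start site, RefSeq, GRCh38.p14) are printed on the strand of the gene, with capitals marking matches to the motifs searched.
DSC3, chr18:31042693-31042992, minus strand: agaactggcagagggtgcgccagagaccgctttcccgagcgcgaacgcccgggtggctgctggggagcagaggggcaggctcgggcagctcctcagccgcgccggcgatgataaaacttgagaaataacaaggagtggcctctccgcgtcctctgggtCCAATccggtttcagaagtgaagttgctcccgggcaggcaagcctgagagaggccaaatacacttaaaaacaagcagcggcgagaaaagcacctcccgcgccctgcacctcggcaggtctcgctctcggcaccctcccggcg
DSC2, upstream start, chr18:31102372-31102671, minus strand: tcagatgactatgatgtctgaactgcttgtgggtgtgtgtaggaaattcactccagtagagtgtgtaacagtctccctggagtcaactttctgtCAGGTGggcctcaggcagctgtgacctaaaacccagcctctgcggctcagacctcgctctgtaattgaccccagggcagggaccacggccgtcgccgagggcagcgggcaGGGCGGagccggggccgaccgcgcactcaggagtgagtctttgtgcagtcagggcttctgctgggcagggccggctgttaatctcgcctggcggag
DSC2, downstream start, chr18:31101211-31101510, minus strand: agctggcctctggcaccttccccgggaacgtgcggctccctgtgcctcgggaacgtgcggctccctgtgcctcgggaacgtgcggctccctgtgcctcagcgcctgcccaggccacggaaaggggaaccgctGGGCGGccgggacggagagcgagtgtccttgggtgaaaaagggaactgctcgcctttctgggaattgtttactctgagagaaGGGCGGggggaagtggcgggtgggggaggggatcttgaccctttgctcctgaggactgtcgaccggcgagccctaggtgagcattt
DSG2, chr18:31497927-31498226, plus strand: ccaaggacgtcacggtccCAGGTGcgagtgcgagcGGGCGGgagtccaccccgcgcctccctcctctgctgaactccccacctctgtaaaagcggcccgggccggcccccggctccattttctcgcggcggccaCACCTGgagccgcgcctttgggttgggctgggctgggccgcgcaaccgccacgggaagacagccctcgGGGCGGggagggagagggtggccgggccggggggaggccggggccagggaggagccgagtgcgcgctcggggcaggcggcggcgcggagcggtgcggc
The motifs were searched on both strands: CAGGTG, the E-box that SNAI and ZEB factors bind; GGGCGG, the GC box; CCAAT, bound by NF-Y; TATAAA, the TATA box; TGANTCA, bound by AP-1; and GGAATG, bound by TEAD factors. The matches in these windows did not overlap each other. The DSC3 window held 1 CCAAT, 92 bases before the start, and no GGGCGG or CAGGTG. The upstream DSC2 window held 1 CAGGTG and 1 GGGCGG, the downstream one 2 GGGCGG, and the DSG2 window 2 GGGCGG and 2 CAGGTG, 1 of these on the reverse strand. Among 35116 windows of the same length, 20.6% held the E-box, 45.0% the GC box and 34.6% the CCAAT motif. The TATA box was in 11.5%, the AP-1 motif in 7.71% and the TEAD motif in 14.0%, and none of these was in the windows printed. G and C made up 63.3% of the DSC3 window, 60.7% and 65.7% of the DSC2 windows and 76.7% of the DSG2 window, against a median of 58.7%.

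DSC3 (30990008 to 31042815, minus strand) had 7.02, 6.34 and 6.82 CPM with CD146 overexpression and 0.971, 1.16 and 0.876 CPM with pLVX, which rest on 86 to 118 and 12 to 19 counts. The 3 libraries with overexpression lay well above the 3 with pLVX, at a log2 fold change of 2.72 (SE 0.21), or 6.6-fold. It still stood below the libraries labelled Hep3B, at 0.893 ± 0.0473 FPKM (SD, n = 3) with overexpression against 3.33 FPKM with the CD146 shRNA and 3.37 FPKM with the control shRNA there. DSC2 (31058840 to 31102522, minus strand) had 106, 97.2 and 102 CPM with CD146 overexpression and 79.3, 84.3 and 81.0 CPM with pLVX. These groups did not overlap either, at the smaller log2 fold change of 0.32 (SE 0.04). DSG2 (31498043 to 31549008, plus strand) had 274, 281 and 267 CPM with CD146 overexpression and 278, 285 and 280.1 CPM with pLVX, overlapping groups at -0.04 (SE 0.03). On the FPKM scale, where the median of all genes lay 0.07 higher with overexpression, DSG2 was at 0.04.

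Few other genes of this stretch of chromosome 18 were measured well enough to compare. Within 500 kb of DSG2, 4 genes were tested in HepG2, where 9.55% of all genes tested rose and 10.3% fell. TTR (transthyretin) fell by 0.49 on the log2 scale with CD146 overexpression (edgeR adjusted p = 1.1e-07), B4GALT6 (a galactosyltransferase) rose by 1.14 (edgeR adjusted p = 5.9e-05), and the other 2 did not pass the test. Antisense and intronic genes overlapping the 10 had few counts: DSG2-AS1 reached at most 17, where DSG2 had at least 3437, and DSCAS at most 9, where DSC2 had at least 712.

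Among the classical cadherins of HepG2, CDH2 had 190.4, 185 and 192 CPM with CD146 overexpression and 239, 234 and 232 CPM with pLVX. All 3 libraries with overexpression were below all 3 with pLVX (log2 fold change -0.31, SE 0.03). CDH2 was therefore lower in both comparisons, with CD146 lowered in libraries labelled Hep3B and with CD146 raised in HepG2. CDH1 had 82.6, 90.3 and 84.7 CPM with overexpression and 91.8, 90.7 and 90.8 CPM with pLVX, just without overlap (-0.09, SE 0.04), and on the FPKM scale it was at -0.01. PKP3 averaged 25.9 CPM with overexpression and 23.8 CPM with pLVX (0.11, SE 0.07) with overlapping groups. CTNND1 had 54.8, 56.8 and 56.3 CPM with overexpression and 52.6, 50.9 and 49.1 CPM with pLVX, without overlap but not called (0.14, SE 0.05).

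CDH3 had 2, 0 and 2 counts with overexpression and 3, 1 and 1 with pLVX. CDH17 had 0 counts in all 6 HepG2 libraries, which allows at most 0.178 to 0.235 CPM depending on the library, for counting error only, whereas libraries labelled Hep3B had 63 to 86 counts. CDH3 and CDH1 are neighbours on chromosome 16, 14.6 kb apart, and CDH1 was above 80 CPM in HepG2 while CDH3 was at or under the floor.

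The make-up of each family can be given as shares of its summed FPKM. In libraries labelled Hep3B, the 4 classical cadherins summed to 5.79 ± 0.306 FPKM with the CD146 shRNA and 3.84 ± 0.0902 FPKM with the control shRNA. CDH5 made up 56.3% of this sum with the CD146 shRNA and 3.30% with the control shRNA, and CDH2 made up 33.4% with the CD146 shRNA and 90.7% with the control shRNA. In HepG2 the sum was 37.1 ± 0.358 FPKM with CD146 overexpression and 41.3 ± 0.25 FPKM with pLVX. There CDH2 made up 60.9% with overexpression and 64.6% with pLVX, and CDH1 39.0% with overexpression and 35.3% with pLVX. The ratio of CDH2 to CDH1 was 1.45 to 1.63 with overexpression and 1.81 to 1.84 with pLVX.

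The 3 desmosomal cadherins summed to 46.6 ± 1.46 FPKM with the CD146 shRNA and 46.2 ± 1.79 FPKM with the control shRNA, and DSG2 made up 83.7% in both. In HepG2 they summed to 38.8 ± 0.558 FPKM with CD146 overexpression and 35.3 ± 0.75 FPKM with pLVX, with 76.2% from DSG2 with overexpression and 81.7% with pLVX. On log2(FPKM + 0.1) the median of all genes lay 0.07 higher with overexpression, which bears on the HepG2 sums of both families. In CPM, DSG2 averaged 274 with overexpression and 281 with pLVX. DSC2 exceeded DSC3 by 1.23 to 1.34 times with the CD146 shRNA and by 1.15 to 1.34 times with the control shRNA. In HepG2 the ratio of DSC2 to DSC3 was 9.19 to 9.43 with overexpression and 43.9 to 57.5 with pLVX.

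**Figure D4:**
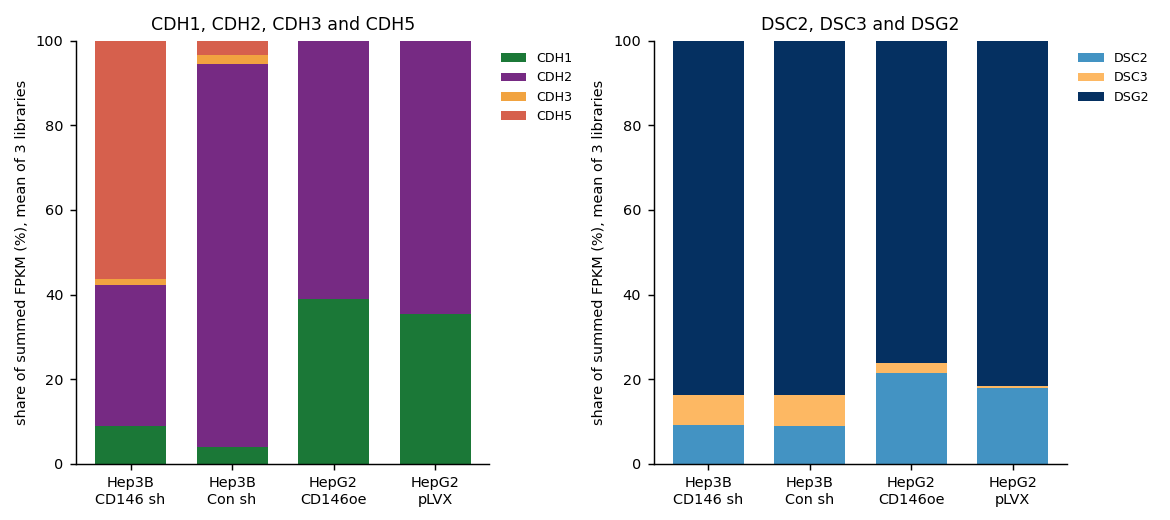
Share (vertical axis, percent, from 0) of each gene in the summed FPKM of the 4 classical cadherins (left) and the 3 desmosomal cadherins (right), as the mean of 3 libraries in each group. CDH5 takes 56.3% of the classical sum in libraries labelled Hep3B with the CD146 shRNA and 3.30% with the control shRNA, and DSC3 takes 2.30% of the desmosomal sum in HepG2 with CD146 overexpression and 0.358% with pLVX.

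The partners of these proteins were examined through 47 genes: 17 other cadherins, 10 desmosomal and 20 catenin or adherens junction genes. With the CD146 shRNA 25 of them passed the filter, of which 7 rose, 6 fell and 12 did not pass the test, with a median log2 fold change of 0.03. With CD146 overexpression 27 passed the filter, of which 11 rose, 2 fell and 14 did not pass the test, with a median of 0.14. The medians over all genes tested were 0.00 in both comparisons. Of all genes tested, 26.8% rose and 28.5% fell with the CD146 shRNA, and 9.55% rose and 10.3% fell with CD146 overexpression.

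Of the desmosomal partners, JUP (plakoglobin, which binds both classical and desmosomal cadherins) averaged 353 ± 18.1 CPM with the CD146 shRNA and 304 ± 11.2 CPM with the control shRNA, a rise of 0.21 on the log2 scale (edgeR adjusted p = 5.0e-05). It averaged 59.0 ± 4.63 CPM with CD146 overexpression and 44.9 ± 3.52 CPM with pLVX, a rise of 0.40 (edgeR adjusted p = 2.0e-07). DSP (desmoplakin, the link to keratin) fell by 0.14 with the CD146 shRNA (edgeR adjusted p = 0.00318) and stood at 801 CPM in HepG2 with overexpression and 797 CPM with pLVX. PERP, a desmosomal membrane protein, rose by 0.20 with overexpression (edgeR adjusted p = 3.6e-05) and PKP4 fell by 0.22 (edgeR adjusted p = 1.1e-05). PKP2, the plakophilin of simple epithelia, rose by 0.19 with overexpression (edgeR adjusted p = 0.00347). With the CD146 shRNA it fell by 0.18 (edgeR adjusted p = 0.031), a call that was lost (adjusted p 0.06 to 0.15) without the control shRNA library numbered 1 or 3 or the CD146 shRNA library numbered 1 or 2. The stratified-epithelium genes DSC1, DSG1, DSG3 and PKP1 were at or under the floor in every library.

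Of the adherens junction genes, CTNNB1 (β-catenin) averaged 177 ± 3.35 CPM with the CD146 shRNA and 253 ± 6.34 CPM with the control shRNA, a fall by 0.52 on the log2 scale (edgeR adjusted p = 1.1e-13). It stood at 321 CPM in HepG2 with CD146 overexpression and 328 CPM with pLVX. VCL (vinculin) and AJUBA, both recruited to the junction with actin, rose in both comparisons: VCL by 0.30 with the CD146 shRNA and 0.23 with overexpression, AJUBA by 0.40 with the CD146 shRNA and 0.17 with overexpression (edgeR adjusted p 5.6e-08 to 1.6e-04). Nectins are immunoglobulin-type adhesion proteins of the same junction. With the CD146 shRNA NECTIN1 fell by 0.59, to 11.4 CPM against 16.9 CPM with the control shRNA (edgeR adjusted p = 7.9e-06), NECTIN2 rose by 0.39 (edgeR adjusted p = 1.8e-06), and NECTIN3 did not pass the test (0.07, edgeR adjusted p = 0.423). With CD146 overexpression NECTIN3 averaged 34.7 CPM against 12.8 CPM with pLVX (1.45, edgeR adjusted p = 6.2e-22), and NECTIN4 20.7 CPM against 9.61 CPM with pLVX (1.12, edgeR adjusted p = 3.2e-12). NECTIN1 (0.14, edgeR adjusted p = 0.161) and NECTIN2 (0.07, edgeR adjusted p = 0.342) did not pass the test there.

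Most other cadherins were hardly detected: 11 of the 17 were at or under the floor in all libraries labelled Hep3B and 10 in all HepG2 libraries. CDH13 (T-cadherin, which lacks a cytoplasmic tail) fell by 0.53 with the CD146 shRNA, to 41.2 CPM against 59.4 CPM with the control shRNA (edgeR adjusted p = 5.9e-10), and had at most 3 counts in HepG2. CDH16 (kidney-specific cadherin) rose by 1.17 with CD146 overexpression, to 4.37 CPM against 1.95 CPM with pLVX (edgeR adjusted p = 1.1e-05). CDH4 (0.57), CDH26 (-1.18) with the CD146 shRNA and CDH24 (-0.64) with overexpression passed the test at adjusted p 0.0219, 0.0327 and 0.0232. CDH4 lost its call without the control shRNA library numbered 1 (adjusted p 0.12) or 2 (0.08) or the CD146 shRNA library numbered 3 (0.068). CDH26 lost it without any 1 of 4 libraries (adjusted p 0.08 to 0.20), numbered 1 and 3 in both groups, and CDH24 likewise without pLVX 1 or 2 or overexpression 1 or 3 (0.055 to 0.14).

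**Figure D5:**
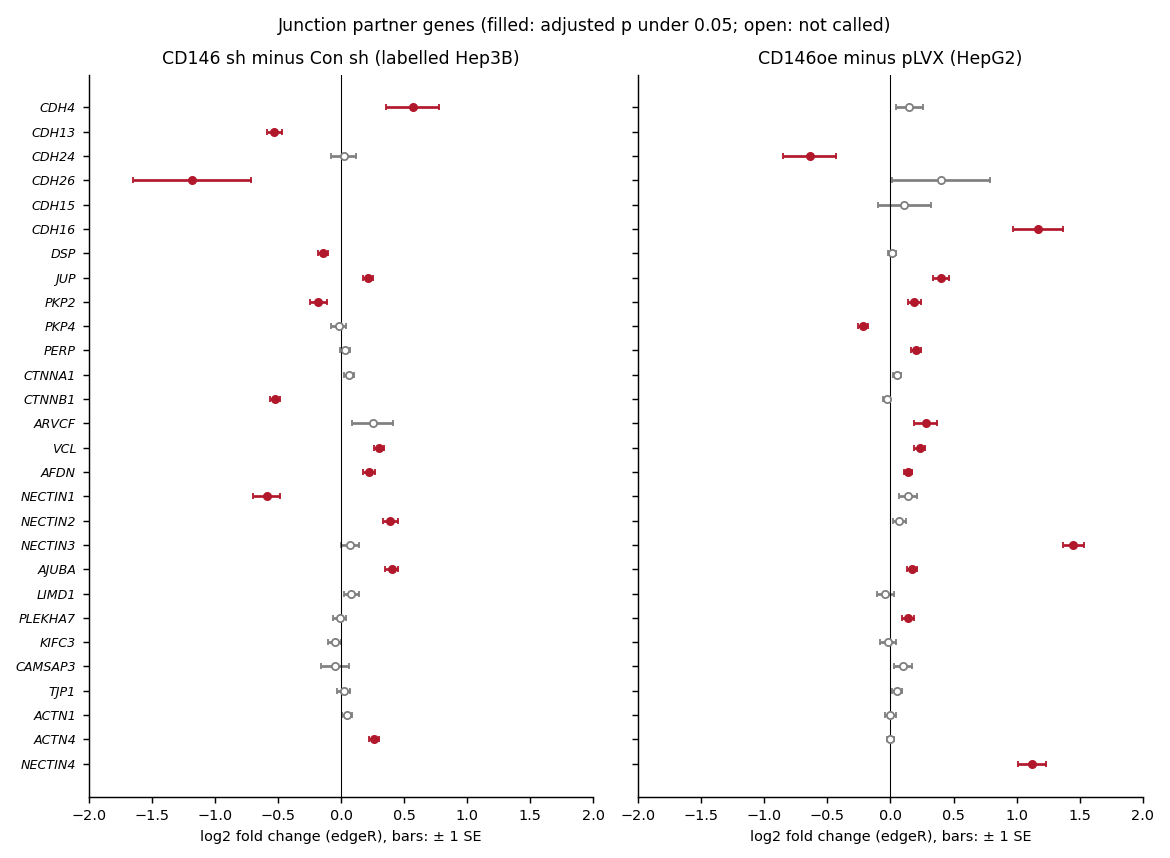
Log2 fold change (horizontal axis, ± 1 SE) of the junction partner genes that passed the filter, for the CD146 shRNA minus the control shRNA in libraries labelled Hep3B (left) and CD146 overexpression minus pLVX in HepG2 (right). Filled points passed an adjusted p of 0.05 (13 genes in each panel); CTNNB1 lies at -0.52 on the left and NECTIN3 at 1.45 on the right.

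Genes that act on cadherins were taken from 3 further lists. Their counts stand beside 26.8% of all genes tested higher and 28.5% lower with the CD146 shRNA. With CD146 overexpression the shares were 9.55% and 10.3%. Of 12 genes of cadherin shedding and turnover, all passed the filter, and 6 rose and 4 fell with the CD146 shRNA, with a median of 0.09. ADAM10, the protease that sheds E-, N- and VE-cadherin, rose by 0.38 (edgeR adjusted p = 2.9e-10), and EXOC4, an exocyst subunit, fell by 0.71 (edgeR adjusted p = 2.1e-15). With CD146 overexpression none of the 12 rose and 5 fell, with a median of -0.08, among them NCSTN (nicastrin, of γ-secretase) by 0.15 (edgeR adjusted p = 0.00432) and EXOC4 by 0.22 (edgeR adjusted p = 0.00395). On the FPKM scale neither NCSTN (-0.07, limma adjusted p = 0.22) nor EXOC4 (-0.15, limma adjusted p = 0.16) passed the test in HepG2.

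Of 18 transcription regulators of cadherin genes, 10 passed the filter with the CD146 shRNA, of which 4 rose and 3 fell (median 0.03). GRHL1, a grainyhead factor of epithelial junction genes, averaged 8.17 CPM with the CD146 shRNA and 3.94 CPM with the control shRNA (1.08, edgeR adjusted p = 1.2e-07). SNAI2, a repressor of CDH1, averaged 7.97 CPM with the CD146 shRNA and 5.94 CPM with the control shRNA (0.43, edgeR adjusted p = 0.00688), a call lost without the control shRNA library numbered 3 (0.28, adjusted p = 0.1). The E-protein TCF3, another CDH1 repressor, rose by 0.22 (edgeR adjusted p = 1.4e-04) and the epithelial splicing factor ESRP2 fell by 0.20 (edgeR adjusted p = 7.1e-04). SNAI1, a CDH1 repressor of the same family as SNAI2, averaged 2.18 CPM with the CD146 shRNA and 3.22 CPM with the control shRNA, a fall by 0.58 (edgeR adjusted p = 0.0182). TWIST1, a further repressor of CDH1, averaged 0.81 CPM with the CD146 shRNA and 1.49 CPM with the control shRNA, a fall by 0.89 (edgeR adjusted p = 0.013). SNAI1 lost its call without the control shRNA library numbered 1 (adjusted p = 0.053) or 2 (0.051) or the CD146 shRNA library numbered 1 (0.15), and TWIST1 without the control shRNA library numbered 1 (0.072) or the CD146 shRNA library numbered 1 (0.06). ZEB1, another repressor of CDH1, averaged 48.7 CPM with the CD146 shRNA and 52.0 CPM with the control shRNA, not past the test (edgeR adjusted p = 0.156). In HepG2, 8 passed the filter and KLF4, an activator of CDH1, was the 1 gene that rose, to 1.52 CPM against 0.628 CPM with pLVX (1.30, edgeR adjusted p = 0.00384), with none falling (median -0.01).

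Of 23 protocadherins and other atypical cadherins, 14 passed the filter with the CD146 shRNA, of which 5 rose and 4 fell (median 0.03). CELSR1, of the planar polarity pathway, fell by 0.74 (edgeR adjusted p = 2.7e-15). The calsyntenin CLSTN1 rose by 0.53 (edgeR adjusted p = 4.6e-14), FAT1 by 0.46 (edgeR adjusted p = 3.4e-11) and CLSTN2 by 2.35 from very few counts (edgeR adjusted p = 1.1e-06). In HepG2, 11 passed the filter, 1 rose and 2 fell (median 0.10), and CELSR2 fell by 0.30 (edgeR adjusted p = 8.3e-04), which did not hold on the FPKM scale (-0.22, limma adjusted p = 0.13).

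Markers of other cell types in which these cadherins are found were counted as well. For all genes tested the shares were 26.8% higher and 28.5% lower with the CD146 shRNA. With CD146 overexpression they were 9.55% higher and 10.3% lower. Of 9 squamous and basal markers, 4 passed the filter in libraries labelled Hep3B, where KRT17 rose by 2.67 (edgeR adjusted p = 1.7e-28) and TP63 by 1.21 (edgeR adjusted p = 0.00609). The sum was 151 to 170 CPM with the CD146 shRNA and 102 to 113 CPM with the control shRNA. This higher sum came from KRT17, at 68.0 CPM with the CD146 shRNA and 10.7 CPM with the control shRNA. SFN (84.1 CPM against 88.7 CPM with the control shRNA) and KRT15 (6.05 CPM against 6.92 CPM) did not pass the test. TP63 lost its call without the control shRNA library numbered 3 (adjusted p = 0.051) or the CD146 shRNA library numbered 1 (0.071). In HepG2, where DSC3 was higher with CD146 overexpression, 2 of the 9 passed the filter: KRT17 rose by 1.28 on the log2 scale (edgeR adjusted p = 0.00497) and SFN fell by 0.23 (edgeR adjusted p = 0.0301). KRT17 lost its call without the pLVX library numbered 3 (adjusted p = 0.055) and SFN without any of 5 single libraries (0.052 to 0.14). The sum of the 9 was 20.5 to 21.3 CPM with overexpression and 21.0 to 24.0 CPM with pLVX, and KRT5, KRT14, KRT6A, TP63, IVL and DSG3 were at or under the floor.

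Of 9 intestinal markers, 1 passed the filter in libraries labelled Hep3B and rose (CDHR5, 0.54, edgeR adjusted p = 0.0013), and 3 passed in HepG2, where VIL1 rose by 0.21 (edgeR adjusted p = 7.7e-07) and CDHR5 by 0.57 (edgeR adjusted p = 0.0108). CDHR5 in HepG2 lost its call without the pLVX library numbered 2 (adjusted p = 0.081) or the overexpression library numbered 2 (0.056). Of 8 mesenchymal markers, which often move with CDH2, 6 passed the filter with the CD146 shRNA, with 4 higher and 1 lower. VIM fell by 0.48 (edgeR adjusted p = 1.5e-13). Among the 4 higher, FN1 rose by 1.77 (edgeR adjusted p = 2.3e-12), COL1A1 by 0.68 (edgeR adjusted p = 2.4e-13) and COL1A2 by 5.02 (edgeR adjusted p = 2.8e-11). COL1A2 was uneven, with 19 to 150 counts in the CD146 shRNA libraries and 3 in each control shRNA library. In HepG2, 6 passed, with 1 higher and 2 lower, FN1 falling by 0.29 (edgeR adjusted p = 2.2e-12) and ACTA2 rising by 0.50 (edgeR adjusted p = 5.8e-08). Of the hepatocyte markers, 1 rose and 5 fell in HepG2 with overexpression, ALB falling by 0.54 (edgeR adjusted p = 2.2e-23), and the only one tested in libraries labelled Hep3B did not pass. The part of these markers in the values of the cadherins was not tested.

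The genes with the most similar profiles were found as the smallest root-mean-square difference between centred log2(CPM + 0.5) values over the 12 libraries, among 15513 genes. They were chosen for their likeness, and these distances are a description. The closest to CDH5 was PSG4 (0.18 log2 units), a pregnancy glycoprotein whose reads may be split with its near-identical relatives, then OR51E2 (0.457). PSG4 averaged 17.4 CPM with the CD146 shRNA and 0.357 CPM with the control shRNA. For DSC3 the closest were LAMA3 (0.275), the laminin chain of epithelial basement membrane, and PSD3 (0.302). In HepG2, LAMA3 averaged 6.65 CPM with CD146 overexpression and 1.66 CPM with pLVX. CDH1 was closest to C3 (0.25) and HGD (0.288) and CDH2 to UGDH (0.143) and PEG10 (0.171). DSG2 was closest to SETD5 (0.0364) and SRRM2 (0.0452), DSC2 to SPRING1 (0.0774) and TBC1D24 (0.0787), PKP3 to ASB13 (0.0925) and DPH2 (0.0934), CTNND1 to KLC4 (0.0663) and ELMO2 (0.0686), and CDH17 to ZNF630 (0.0403) and TGFBR1 (0.0988). CDH3 stayed under 1 CPM on average in every group and was not compared.

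Neighbouring genes on chromosomes 11 and 16 were counted within 500 kb of each gene. The neighbour counts are for the CD146 shRNA, where 26.8% of all genes tested rose and 28.5% fell. Around CDH5, 10 neighbours were tested with the CD146 shRNA, of which 2 rose and 3 fell, with CMTM4 falling by 0.48 (edgeR adjusted p = 2.2e-10). Around CDH1, 5 of 17 neighbours rose and 3 fell, led by PLA2G15 (0.73, edgeR adjusted p = 5.1e-10). Around PKP3, in the gene-dense end of chromosome 11, 11 of 43 rose and 9 fell. Around CTNND1 7 of 13 rose and 3 fell. The only gene overlapping CDH1 with more than 1 count in a library was the pseudogene FTLP14, with at most 40 counts in HepG2 with overexpression and 49 with pLVX, against more than 1000 of CDH1.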

How the data were processed

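Poly(A) RNA was sequenced in 12 libraries of 4 groups, taken from the titles and treatment labels. The authors deposited raw counts for Ensembl gene IDs, whole numbers whose totals differ between libraries, and FPKM values (scaled for gene length and library size, 2 decimals) beside these. Tools named in the submitters' processing notes, without their roles, are HTSeq 0.6.1, cutadapt 1.9.1 and HISAT2 2.2.1. The genome build, annotation and strand setting of the counting are not given in the sources used here, so reads of overlapping, antisense or near-identical genes may have been split or lost. Symbols were found for 61757 of 61806 IDs, and positions come from GENCODE 29 (GRCh38), which need not be the authors' annotation.

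Counts were tested with edgeR 4.0.16 in R 4.3.3 (quasi-likelihood test, TMM scaling, filterByExpr), each line alone, 2-sided, with Benjamini-Hochberg adjustment over all genes tested and a threshold of 0.05. SE is the absolute log2 fold change over the root of the F statistic. CPM is TMM-scaled within a line, and values after ± are SD of 3 libraries. Fold changes are CD146 shRNA minus control shRNA, or CD146 overexpression minus pLVX. FPKM serve to compare genes or lines and to give the sums and shares of a family. Totals of 12.8M to 18.1M counts set the precision, and the floor of 3 counts covers counting error only, as PCR copies of 1 molecule were not told apart. The fit was tested on simulated data.

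The genes and lists were chosen with earlier results of these data known. Named were the 10 genes and MCAM, up to 4 called genes with the smallest adjusted p per list and comparison, genes needed to check a label, the 2 nearest profiles per gene, and up to 4 called neighbours per gene within 500 kb. The markers PECAM1, EGFL7, TIE1, EMCN, DSC1, DSG1, PKP1, KRT5, KRT14, KRT15, KRT6A and IVL, and NECTIN1, SNAI1, TWIST1, ZEB1, CDX1, CDX2, DSG2-AS1, DSCAS and FTLP14, were named after their values were seen. Alternatives were DESeq2 1.42.0, no filter on low counts, DESeq2 size factors, limma 3.58.1 on log2(FPKM + 0.1) or log2(FPKM + 1), a replicate block, 1 fit of all libraries, and leaving out each library.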

Additional observations from a re-analysis of the deposited data

How the results depend on the processing

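Of 60 counts of calls and MCAM values recomputed under the alternatives, 59 stayed within the limits used and 1 did not. The DESeq2 Wald test called 1839 genes with CD146 overexpression, against 3037 with edgeR, and the cause was not tested. For counts of calls the limits covered only the total called. A changed split into higher and lower genes therefore still counted as within them. On deposited FPKM with limma, 1585 genes were called higher and 491 lower with overexpression, against 1461 and 1576 with edgeR, with the median of all genes at 0.07 in place of 0.00. Of 204 recomputed log2 fold changes of the 10 genes, 186 moved by less than the spread between replicates, 18 moved by more and 0 reversed a called direction. The pseudocount on FPKM compresses genes near the floor by construction: CDH5 with the CD146 shRNA ranged from 1.92 to 4.86, CDH1 from 0.41 to 2.28 and DSC3 with overexpression from 0.75 to 2.86, with the lowest value of each from log2(FPKM + 1). Of 780 recomputed values of the named list genes, 701 kept their call, 79 lost it and 0 reversed. The DESeq2 Wald test ended the calls of CDH4, CDH26, PKP2, ERG, SNAI1 and TWIST1 with the CD146 shRNA (adjusted p 0.064 to 0.13) and of CDH24, CDHR5 and SFN with overexpression (0.073 to 0.14), and limma on log2(FPKM + 0.1) ended the same calls except those of CDHR5, SNAI1 and TWIST1, and those of SNAI2 and TP63 with the CD146 shRNA (0.052 to 0.099). Depth limits CDH3, with 3 to 13 counts in libraries labelled Hep3B and 0 to 3 in HepG2, and CDH5 and CDH17 in HepG2, with at most 3 counts.

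Deviations from the group means correlated at 0.106, 0.05 and 0.032 between same-numbered shRNA libraries and at -0.043, -0.044 and 0.018 in HepG2. The CD146 shRNA libraries numbered 1 and 2 correlated most with the same-numbered control, the one numbered 3 with control 2. No HepG2 library with overexpression correlated most with the same-numbered pLVX library. With 3 libraries per group these values cannot settle whether the numbers pair the samples. With the replicate block, 9543 genes were called with the CD146 shRNA (9385 without) and 2947 with overexpression (3037 without), and 13 and 12 of the junction partner genes (13 and 13 without).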
